A study of Mus musculus with 14 samples.

Results

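The 9 genes described here are the subunits of the class I phosphoinositide 3-kinases (PI3Ks), the PI3K inhibitor Pik3ip1 and the lipid phosphatase Inpp5d. A usable value in every library of an experiment was there for 45210 annotated genes, Pik3ip1 not among them. The 9 were chosen by name, and Pik3r5 was singled out because it differed between mutant and WT cells in one experiment and not in the other. The mutant-to-WT differences of the 9 genes are therefore given as a description, with standard errors and without p-values.

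Class I PI3Ks phosphorylate a membrane phosphoinositide to PIP3, which recruits AKT and other kinases below the antigen receptor, costimulatory receptors and cytokine receptors of T cells. Each enzyme pairs a catalytic subunit with a regulatory one. p110α (Pik3ca), p110β (Pik3cb) and p110δ (Pik3cd) pair with p85-type regulators such as that encoded by Pik3r1. p110γ (Pik3cg) pairs instead with p101 (Pik3r5) or p84 (Pik3r6) and responds to G protein-coupled receptors. SHIP-1 (Inpp5d) removes a phosphate from PIP3. Pik3ip1 is a transmembrane protein that restrains p110 activity in T cells.

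RNA-Seq was performed on CD4+ T cells of C57BL/6 mice aged 6 to 12 weeks, both sexes. The labels name the spleen, and the study's methods describe naive cells sorted from pooled spleen and lymph nodes. They were activated from the naive state for 3 days with anti-CD3, anti-CD28 and IL-2 and sorted as viable cells. In the 3-day experiment, HDAC1cKO-HDAC2HET cells (n = 4), which lack both Hdac1 alleles and one Hdac2 allele, were compared with WT cells (n = 4). In the restimulation experiment, HDAC1cKO cells (n = 3), which keep Hdac2, were compared with WT cells (n = 3), and all 6 cultures received a further 12 hours of anti-CD3. Deletion was driven by Cd4-Cre, which acts in developing thymocytes, so the cells had matured with the targeted alleles of each genotype deleted. The controls were littermates. Genotype and culture changed together between the experiments, and so did sex as judged from transcripts given below. Genotype, culture and sex cannot be told apart in a comparison of the differences of the experiments. The study describes the cell batches of the 3-day experiment as independent and prepared on the same day. For the restimulation experiment no source used here says that replicates came from separate cultures, so their spread may in part be technical.

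Hdac1 was at 78.1 ± 1.44 FPKM (fragment number scaled to transcript length and to library depth, SD, n = 4) in WT and 8.30 ± 1.89 in HDAC1cKO-HDAC2HET cells, and at 75.6 ± 4.78 and 10.1 ± 1.82 (n = 3 each) in WT and HDAC1cKO cells after restimulation. Hdac2 fell from 59.0 to 35.4 FPKM in HDAC1cKO-HDAC2HET cells (adjusted p = 2.83e-06, limma) and was at 72.3 and 80.4 FPKM in WT and HDAC1cKO cells (adjusted p = 0.581). The libraries held an estimated 22500000 to 53200000 fragments. Summed FPKM of 7 T cell markers lay between 1567 and 1682 in WT and between 1384 and 1482 in HDAC1cKO-HDAC2HET libraries, which did not overlap. Cd3d, Cd3e, Cd3g, Cd4, Cd5 and Lck fell there, by 0.18 to 0.65 on the log2 scale, and Thy1 rose by 0.92 (adjusted p at most 0.0136, limma). After restimulation the sums overlapped, at 1314 to 1646 in WT and 1513 to 1691 in HDAC1cKO libraries. Summed FPKM of 7 myeloid markers was at most 0.891 in every library. Ms4a1, Pax5, Lyz2, Csf1r, Cd14, Tyrobp, Ncr1 and Klrb1c, defining markers of B, myeloid and NK cells, did not enter the 3-day fit, which needed a mean of 0.1 FPKM and a resolved locus. Of the markers of other lymphocytes, Cd79b, Nkg7, Klrk1, Eomes, Cd8a and Cd8b1 rose in HDAC1cKO-HDAC2HET cells (adjusted p at most 0.000577, limma), and the summed NK cell markers were between 31.8 and 50.9 FPKM in WT and between 188.5 and 230 FPKM in these cells. After restimulation that sum was between 29.0 and 164 FPKM in WT and between 225 and 311 FPKM in HDAC1cKO cells. The part that these shifts have in the results below was not tested. In bulk samples, fewer cells of a type and less RNA per cell cannot be told apart.

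In the restimulation experiment the groups also differed in sex. Xist, which is transcribed from the inactive X chromosome of females, was at 42.9, 0.0188 and 33.2 FPKM in the 3 WT libraries and at most 0.0435 FPKM in all 3 HDAC1cKO libraries. The Y-linked Ddx3y was at 0.0176, 18.3 and 1.93 FPKM in the same WT libraries and at 17.0 to 19.98 FPKM in the HDAC1cKO libraries, so WT replicate 3 held both transcripts. Sex as a covariate was coded from Xist alone and counts that library as female. WT replicate 2 was then the only WT library coded like the HDAC1cKO libraries. A restimulation difference fitted with this covariate therefore compares the HDAC1cKO libraries with WT replicate 2 alone. In the 3-day experiment all 8 libraries were Xist-positive, at 58.9 to 65.2 FPKM in WT and 26.0 to 33.7 FPKM in HDAC1cKO-HDAC2HET cells. Ddx3y was at most 0.00445 FPKM in them, so all 8 were female by both genes.

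The sequences immediately before the transcription start are shown for the regulatory subunits Pik3r5 and Pik3r1, which were on opposite sides of WT in the 2 experiments, for Pik3cg, the catalytic partner of Pik3r5, and for Pik3ca. They are RefSeq promoter sequences of GRCm38.p6, written 5′ to 3′ on the strand of the gene, and end at the base before the annotated gene, except that of Pik3ca, which ends before its RefSeq start, upstream of the annotated gene. Pik3r5 lies on the plus strand and its sequence is chr11:68431875-68432120. That of Pik3r1 is chr13:101768218-101768467 on the minus strand, that of Pik3cg chr12:32208660-32208909 on the minus strand and that of Pik3ca chr3:32396815-32397064 on the plus strand. Capitals mark the GC box GGGCGG, its reverse complement CCGCCC, and the ETS core CCGGAA or its reverse complement TTCCGG.
Pik3r5: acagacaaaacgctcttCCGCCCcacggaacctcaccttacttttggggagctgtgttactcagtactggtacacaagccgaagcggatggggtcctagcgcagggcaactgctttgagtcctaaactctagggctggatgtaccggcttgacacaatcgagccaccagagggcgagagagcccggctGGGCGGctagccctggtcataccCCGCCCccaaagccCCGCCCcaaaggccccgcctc
Pik3r1: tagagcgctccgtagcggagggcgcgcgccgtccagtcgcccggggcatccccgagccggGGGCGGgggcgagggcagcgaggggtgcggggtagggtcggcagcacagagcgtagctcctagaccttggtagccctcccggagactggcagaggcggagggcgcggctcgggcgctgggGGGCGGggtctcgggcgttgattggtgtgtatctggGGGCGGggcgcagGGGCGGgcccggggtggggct
Pik3cg: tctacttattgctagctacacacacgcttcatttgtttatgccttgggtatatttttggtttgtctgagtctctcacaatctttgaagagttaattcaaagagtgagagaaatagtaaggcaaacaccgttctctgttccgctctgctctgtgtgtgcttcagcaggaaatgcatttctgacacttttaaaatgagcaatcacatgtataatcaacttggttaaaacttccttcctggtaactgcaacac
Pik3ca: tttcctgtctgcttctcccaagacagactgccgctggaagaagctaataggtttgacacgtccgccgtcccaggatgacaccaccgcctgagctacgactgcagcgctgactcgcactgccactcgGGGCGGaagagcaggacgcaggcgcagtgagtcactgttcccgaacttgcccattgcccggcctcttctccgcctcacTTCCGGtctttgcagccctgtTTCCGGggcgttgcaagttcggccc

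RefSeq held 12 promoters for 8 of the 9 genes, and none was printed for Pik3r6. Pik3r5 had 4 GC boxes in the 250 bases before its start, 61.6% G and C and 14 CpG dinucleotides. Pik3ca also had 61.6% G and C, with 19 CpG and 1 GC box. The Pik3r1 promoter shown had 76.4%, with 30 CpG and 4 GC boxes, but a second Pik3r1 promoter had 42.4%, 6 CpG and no GC box. The Pik3cg promoter shown had 38.8% G and C, 3 CpG and no GC box, which set it apart from that of its regulatory partner Pik3r5. A second Pik3cg promoter had 44.0%, 5 CpG and no GC box. Over all 32851 promoters the median was 52.4% G and C and 6 CpG. A GC box on either strand was in 6 of the 12 promoters of these genes and in 32.7% of all promoters of the same length. The ETS core was in 1 of the 12, that of Pik3ca, against 12% of all. The RUNX motif TGTGGT (14% of all promoters), the KLF motif CACACCC (6.9%) and the T-box motif AGGTGTGA (1.1%) had no match in any of the 12 on either strand. The FOXO motif TGTTTAC (3.2%) had 1 match, at a second annotated start of Pik3cg. No match of one motif overlapped a match of another. A match is a description of letters and not of binding.

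Levels in WT cells set the members in an order, on the FPKM scale, which is per length. In WT cells after 3 days Pik3cd was highest at 90.3 ± 7.66 FPKM (n = 4), followed by Inpp5d at 18.7 ± 0.770, Pik3ca at 14.4 ± 0.403, Pik3r1 at 7.46 ± 0.329, Pik3cg at 7.22 ± 0.703, Pik3ip1, Pik3r5 at 3.43 ± 0.174, Pik3cb at 1.49 ± 0.0886 and Pik3r6. Each gene's range over the 4 libraries lay apart from that of the next, except for Pik3r1 and Pik3cg. In restimulated WT cells the order was the same for the first 4 genes, with Pik3cd at 63.2 ± 13.9 FPKM (n = 3), but Pik3r5 at 8.39 ± 0.199 stood beside Pik3cg at 7.89 ± 1.85, and their ranges overlapped. The ranges of Inpp5d and Pik3ca, and of Pik3ca and Pik3r1, overlapped there too. The experiments were cultured and processed apart, so their levels are set side by side only.

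**Figure D1:**
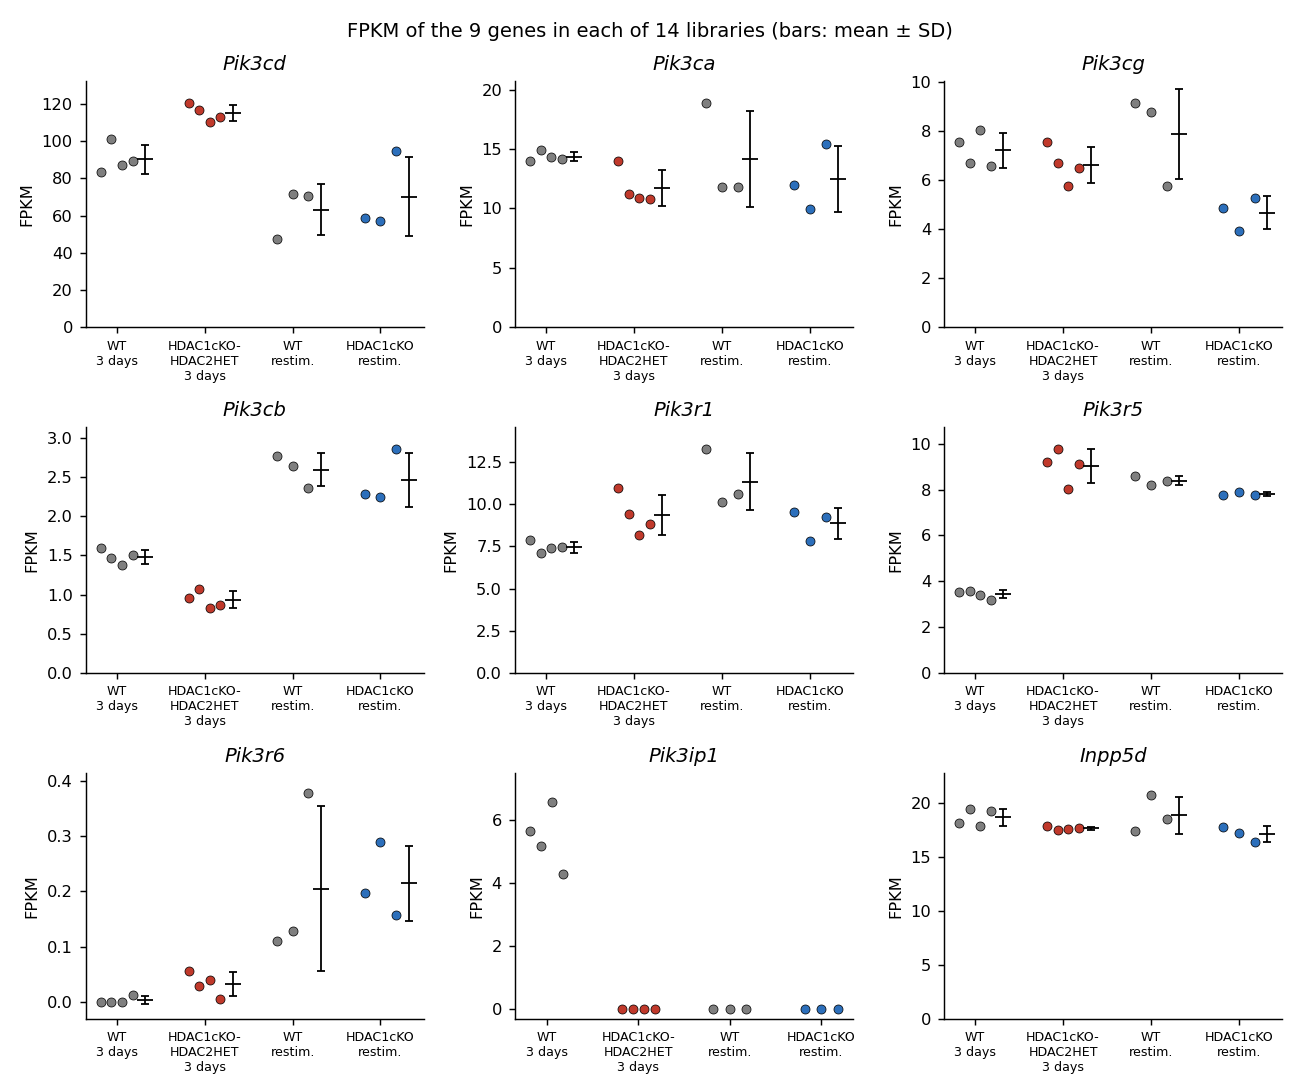
FPKM (vertical axis, linear) of the 9 genes in each of the 14 libraries (points, by group), with the mean and SD of the group beside them except for Pik3ip1. Pik3r5 is between 3.19 and 3.56 FPKM in the 4 WT libraries of the 3-day experiment and between 7.75 and 9.76 FPKM in the 10 others, and Pik3ip1 is above 0 in those 4 WT libraries alone.

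Pik3r5, the p101 regulatory subunit of PI3Kγ, showed the largest log2 difference between mutant and WT cells of the 7 members that could be fitted in the 3-day experiment. Its FPKM was 3.55, 3.56, 3.42 and 3.19 in the 4 WT libraries and 9.19, 9.76, 8.02 and 9.13 in the 4 HDAC1cKO-HDAC2HET libraries. Every mutant library was above every WT library, and the means stood 2.63-fold apart, a log2 difference of 1.37 (SE 0.070). After restimulation Pik3r5 was at 8.61, 8.22 and 8.36 FPKM in WT and 7.78, 7.89 and 7.75 FPKM in HDAC1cKO cells. Here every mutant library was below every WT library, but by a log2 difference of only -0.10 (SE 0.083), with a 95% interval of -0.31 to 0.10. The difference between the 2 log2 differences was 1.47 (SE 0.099). The 4 WT libraries without restimulation held the lowest values. Restimulated WT cells, with both enzymes intact, were at 8.39 FPKM and HDAC1cKO-HDAC2HET cells without restimulation at 9.02 FPKM. The experiments were cultured and processed apart, so these levels are set side by side only, and an effect of restimulation was not tested. With sex as a covariate in the 14-library fit the difference between the 2 log2 differences was 1.44. Its restimulation part then rests on WT replicate 2 alone.

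Pik3r6 (p84), the alternative partner of p110γ, starts 5170 bases downstream of the end of Pik3r5 on the same strand. It was hardly detected. In the 3-day experiment it was at 0, 0, 0 and 0.0136 FPKM in WT and 0.0556, 0.0287, 0.0403 and 0.00575 FPKM in HDAC1cKO-HDAC2HET cells, roughly 0 to 1.9 and 1.0 to 8.0 fragments a library. A count of 0 allowed up to 3 fragments, 0.0184 to 0.0273 FPKM in those WT libraries, counting error only. It did not reach the mean of 0.1 FPKM needed for the fit. After restimulation its values were 0.111, 0.128 and 0.377 FPKM in WT and 0.197, 0.289 and 0.158 FPKM in HDAC1cKO cells, and the groups overlapped. Pik3r5 was thus the only one of the pair above 1 FPKM in any library.

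Pik3cg itself, the catalytic subunit p110γ, did not follow Pik3r5. In the 3-day experiment it was at 7.55, 6.70, 8.04 and 6.57 FPKM in WT and 7.56, 6.70, 5.76 and 6.49 FPKM in HDAC1cKO-HDAC2HET cells, and the groups overlapped (log2 difference -0.12, SE 0.098). After restimulation it was at 9.13, 8.77 and 5.77 FPKM in WT and 4.84, 3.92 and 5.27 FPKM in HDAC1cKO cells. All 3 mutant libraries were lower, with a log2 difference of -0.72 (SE 0.22), and WT replicate 3 was the nearest to them. With sex as a covariate it was -0.90, which compares the mutant libraries with WT replicate 2 alone. The ratio of Pik3r5 to Pik3cg, both in FPKM, was 0.478 ± 0.0443 in WT cells after 3 days and 1.37 ± 0.106 in HDAC1cKO-HDAC2HET cells (SD, n = 4 each). It was 1.11 ± 0.294 in restimulated WT and 1.70 ± 0.283 in HDAC1cKO cells (SD, n = 3 each). The ratio was higher in every mutant library than in every WT library of its experiment, through the higher Pik3r5 in the 3-day mutant and the lower Pik3cg in the restimulated one.

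Pik3cd encodes p110δ, the main class I catalytic subunit of lymphocytes. It was at 83.6, 101, 87.2 and 89.2 FPKM in WT and 120, 117, 110 and 113 FPKM in HDAC1cKO-HDAC2HET cells. The groups did not overlap, and the log2 difference was 0.35 (SE 0.061). After restimulation it was at 47.2, 71.7 and 70.8 FPKM in WT and 58.5, 57.04 and 94.6 FPKM in HDAC1cKO cells. These groups overlapped, and the log2 difference of 0.13 had a 95% interval of -0.50 to 0.76, wide enough to hold the 3-day value.

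Pik3ca, for p110α, was at 14.02, 14.9, 14.4 and 14.2 FPKM in WT and 14, 11.2, 10.9 and 10.8 FPKM in HDAC1cKO-HDAC2HET cells. HDAC1cKO-HDAC2HET replicate 1 lay just below the lowest WT library and the other 3 well below, for a log2 difference of -0.30 (SE 0.084). After restimulation Pik3ca was at 18.9, 11.8 and 11.8 FPKM in WT and 11.9, 9.98 and 15.5 FPKM in HDAC1cKO cells, and the groups overlapped (log2 difference -0.17, SE 0.24). WT replicate 1 of the restimulation experiment had the highest Pik3ca and the lowest Pik3cd of its group.

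Pik3cb, for p110β, was the scarcest catalytic subunit. It was at 1.59, 1.47, 1.38 and 1.501 FPKM in WT and 0.963, 1.08, 0.828 and 0.870 FPKM in HDAC1cKO-HDAC2HET cells. Every mutant library was below every WT library, by a log2 difference of -0.62 (SE 0.10). After restimulation it was at 2.78, 2.65 and 2.37 FPKM in WT and 2.29, 2.25 and 2.86 FPKM in HDAC1cKO cells, and the groups overlapped (log2 difference -0.08, SE 0.16).

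As a share of the summed FPKM of the 4 catalytic subunits, Pik3cd made up 79.6% ± 1.45 in WT and 85.7% ± 0.978 in HDAC1cKO-HDAC2HET cells (SD, n = 4 each), with no overlap. The shares of Pik3ca (12.7% and 8.70%), Pik3cg (6.40% and 4.92%) and Pik3cb (1.32% and 0.694%) were all lower in the mutant, and a share must fall when another rises. The sum itself was 113 ± 7.61 FPKM in WT and 134 ± 6.49 FPKM in the mutant. After restimulation Pik3cd made up 71.4% ± 9.45 in WT and 77.8% ± 2.32 in HDAC1cKO cells (SD, n = 3 each), and the ranges overlapped, from 60.6% to 78.0% and from 75.4% to 80.0%. Of the 4 shares only that of Pik3cg lay apart, at 6.36% to 11.7% in WT and 4.46% to 6.25% in HDAC1cKO cells.

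**Figure D2:**
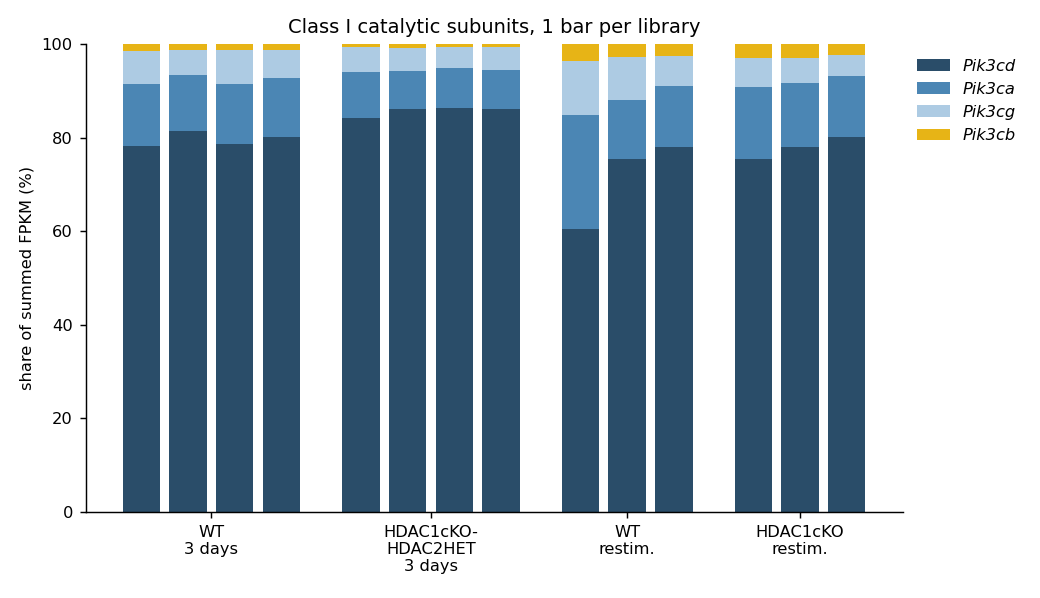
Share (vertical axis, percent) of each catalytic subunit in the summed FPKM of Pik3cd, Pik3ca, Pik3cg and Pik3cb, with 1 bar for each of the 14 libraries, grouped by genotype and culture. Pik3cd takes 78.3% to 81.4% in WT and 84.2% to 86.3% in HDAC1cKO-HDAC2HET libraries, and the first restimulated WT library has the smallest Pik3cd share at 60.6%.

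Pik3r1 encodes p85α and its shorter forms, the regulators of class IA enzymes. It was at 7.89, 7.10, 7.38 and 7.45 FPKM in WT and 10.97, 9.40, 8.17 and 8.83 FPKM in HDAC1cKO-HDAC2HET cells, and every mutant library was higher (log2 difference 0.31, SE 0.089). After restimulation it was at 13.3, 10.2 and 10.6 FPKM in WT and 9.56, 7.84 and 9.26 FPKM in HDAC1cKO cells, and every mutant library was lower (log2 difference -0.34, SE 0.14). Pik3r1 therefore resembled Pik3r5 in lying on opposite sides of WT in the 2 experiments, with a smaller difference between them of 0.66 (SE 0.16). For both genes the 95% interval of the restimulation difference spanned no change, at -0.69 to 0.002 for Pik3r1. There 12.3% of all genes were lower without overlap. With sex as a covariate the restimulation difference of Pik3r1 was -0.19, which compares the mutant libraries with WT replicate 2 alone. Relative to the summed FPKM of Pik3cd, Pik3ca and Pik3cb, Pik3r1 was at 0.0707 ± 0.00791 in WT and 0.0729 ± 0.00598 in HDAC1cKO-HDAC2HET cells, within the spread.

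Inpp5d, for the 5-phosphatase SHIP-1, had the smallest log2 difference of the 7 members fitted in the 3-day experiment. It was at 18.1, 19.4, 17.9 and 19.2 FPKM in WT and 17.9, 17.5, 17.6 and 17.7 FPKM in HDAC1cKO-HDAC2HET cells. All mutant libraries were below all WT libraries, but the log2 difference was only -0.08 (SE 0.035). After restimulation it was at 17.4, 20.8 and 18.5 FPKM in WT and 17.8, 17.2 and 16.4 FPKM in HDAC1cKO cells, and the groups overlapped (log2 difference -0.14, SE 0.093).

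Pik3ip1 could not be compared. It was at 5.64, 5.18, 6.56 and 4.28 FPKM in the 4 WT libraries of the 3-day experiment and was listed at 0 in the other 10 libraries, WT and mutant alike. Gm12592, a transcript on the opposite strand, shares 778 bases with the 5′ part of Pik3ip1 on chromosome 11. It was listed at 0, 0, 0 and 2.82 FPKM in those 4 WT libraries and at 3.54, 3.06, 4.12 and 0 FPKM in HDAC1cKO-HDAC2HET cells. After restimulation it was at 2.14, 0 and 0 FPKM in WT and 0, 0 and 3.25 FPKM in HDAC1cKO cells. In 5 of the 10 libraries without a Pik3ip1 value Gm12592 was above 0, and in the other 5 both were listed at 0. A value of exactly 0 can be a failed estimate of the assembly-based quantification, and the shared locus was not resolved here. No ratio is given for that reason. In the 3-day experiment 11 of 20634 protein-coding genes were at 1 FPKM or more in every WT library and at 0 in every mutant library, and 12 the reverse. Actb, Ppia, Tbp, Hprt, B2m and Pgk1, which all cells use, were at 0 in no library.

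**Figure D3:**
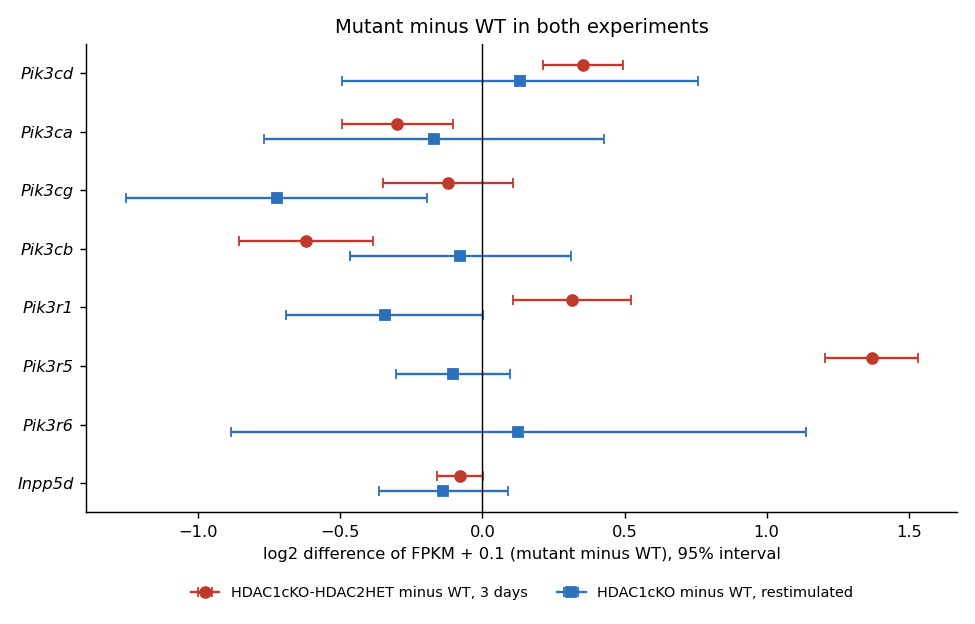
Mutant minus WT on the log2(FPKM + 0.1) scale (horizontal axis) for each gene that could be fitted, with 95% intervals, for HDAC1cKO-HDAC2HET (circles, n = 4 against 4) and HDAC1cKO (squares, n = 3 against 3). Pik3r5 lies at 1.37 in the first and at -0.10 in the second, the widest gap of the 7 genes fitted in both.

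In counts, 7 of the 9 genes passed the filter in the 3-day experiment, and limma with Benjamini-Hochberg adjustment over 15106 genes called Pik3r5, Pik3cd and Pik3r1 higher and Pik3ca and Pik3cb lower. The background was high, since 24.2% of all genes tested were called higher and 27.6% lower, and nothing is read from the members' count. At an unadjusted p under 0.05 the shares of all genes were 26.1% higher and 30.4% lower, 56.5% together. Pik3r5 was the 1 member called at 2-fold or more, against 5.6% of all genes in that direction and 5.55% in the other. The groups of 3 members did not overlap upwards and those of 3 did not overlap downwards, against 23.4% and 26.9% of all genes. The median log2 difference of the 7 was -0.08, beside -0.04 over all genes. In the restimulation experiment 8 of the 9 passed the filter and limma called none of them, beside 0.0719% of 13915 genes in either direction, 0.0144% higher and 0.0575% lower. At 2-fold or more the shares of all genes were 0.00719% higher and 0.0575% lower. At an unadjusted p under 0.05 the count was 1, Pik3cg, which was lower, beside 14.4% of all genes, 6.58% higher and 7.77% lower. Pik3r5, Pik3r1 and Pik3cg were lower without overlap, beside 12.3% of all genes, and none was higher without overlap, beside 9.98%. The median log2 difference of the 8 was -0.12, beside -0.03 over all genes.

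The other genes of the pathway were not used to choose the members, and their tests follow. The lists were chosen with earlier results of these data known, so these tests are not independent of those results. Of 76 genes, 70 were tested in the 3-day experiment, 24 rose and 25 fell in HDAC1cKO-HDAC2HET cells and 21 did not pass (adjusted p at most 0.05, limma). At 2-fold or more 6 rose and 7 fell, beside 5.6% and 5.55% of all genes. The median log2 difference was 0.01. Together 49 of 70 passed, beside 51.8% of all genes in this comparison. Of all genes 24.2% were called higher and 27.6% lower, the shares to set beside the counts of each list below. Nothing is read from the count of a single list. In HDAC1cKO cells 0 of 73 passed, beside 0.0719% of all genes, and 15 were under an unadjusted p of 0.05, beside 14.4%. The median log2 difference was -0.05. The difference between the experiments passed for 11 pathway genes upwards and 5 downwards of 70, beside 15.7% of the 12351 genes tested in both, and 9.13% with a separate spread for each experiment.

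Pik3r2, the p85β regulatory subunit, rose from 12.9 to 27.1 FPKM in HDAC1cKO-HDAC2HET cells (log2 fold change 1.07, SE 0.059, adjusted p = 6.41e-06, limma). In HDAC1cKO cells it was at 10.3 FPKM against 9.13 FPKM in WT (log2 0.17, SE 0.10), and the difference between the experiments passed (0.89, SE 0.10, adjusted p = 0.000251). Pik3r3, the p55γ regulator, was under the filter after 3 days. Of class II and class III PI3Ks, which make other phosphoinositides, 3 of 4 tested rose and 1 fell. Pik3c2b (0.41, adjusted p = 0.0309), Pik3r4 (0.17, adjusted p = 0.00206) and Pik3c3 (0.10, adjusted p = 0.0257) rose, and Pik3c2a fell by 0.58 on the log2 scale (adjusted p = 0.000182). The calls of Pik3c2b and Pik3c3 were each lost in several fits without 1 library, Pik3c2b with adjusted p up to 0.0772 and Pik3c3 up to 0.0668.

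Among 20 tested phosphoinositide phosphatases other than SHIP-1, 7 rose and 7 fell. Synj2, a synaptojanin, fell from 11.04 to 2.52 FPKM (log2 -2.09, SE 0.076, adjusted p = 1.42e-06, limma). Inpp4a, a 4-phosphatase acting on the product of SHIP-1, fell from 10.8 to 4.90 FPKM (-1.11, SE 0.13, adjusted p = 0.000253), and the myotubularin Mtmr3 fell from 34.5 to 18.6 FPKM (-0.89, SE 0.076, adjusted p = 4.34e-05). In the other direction the 5-phosphatase Inpp5b rose from 35.4 to 91.0 FPKM (1.36, SE 0.099, adjusted p = 2.07e-05), Inpp5f from 8.91 to 12.7 FPKM and Inpp5a from 3.44 to 4.19 FPKM (adjusted p = 0.00624 and 0.0388). The call of Inpp5a was lost in several fits without 1 library, with adjusted p up to 0.0987. Inpp5d, with its log2 difference of -0.08, stood between these.

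Of 13 tested receptors and adaptors upstream of PI3K or SHIP-1, 4 rose and 6 fell. The ubiquitin ligase Cblb, a negative regulator of T cell activation, rose from 31.2 to 68.8 FPKM (1.16, SE 0.15, adjusted p = 0.000381). The inhibitory adaptor Dok1 rose from 11.8 to 23.7 FPKM (1.007, adjusted p = 1.09e-05) and Gab3 from 0.686 to 1.13 FPKM (0.66, adjusted p = 0.0113). The 3 largest falls were those of the adaptors Trat1, from 22.0 to 8.62 FPKM (-1.31, adjusted p = 0.00266), Pik3ap1, from 5.80 to 2.52 FPKM (-1.20, adjusted p = 0.00101) and Gab2, from 0.898 to 0.395 FPKM (-1.02, adjusted p = 0.00199).

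Of 22 kinases and effectors downstream of PI3K, 5 rose and 7 fell, and none did so by 2-fold. Tsc2 (0.43, adjusted p = 3.73e-05), Akt1 (0.41, adjusted p = 0.000219) and Mtor (0.27, adjusted p = 0.00276) rose. Mlst8, shared by both mTOR complexes (-0.76, adjusted p = 1.06e-05), Rictor of mTORC2 (-0.62, adjusted p = 7.87e-05) and Tsc1, the partner of Tsc2 (-0.53, adjusted p = 4.53e-05), fell. Of the FOXO factors, which AKT excludes from the nucleus, and FOXO-dependent T cell genes, 4 of 10 rose and 4 fell. Il7r rose from 2.36 to 19.7 FPKM (3.03, SE 0.16, adjusted p = 5.96e-06), Foxo4 from 5.16 to 12.6 FPKM (1.25, adjusted p = 9.48e-05) and Ccr7 from 341 to 553 FPKM (0.71, adjusted p = 0.000475). Klf2 fell from 21.0 to 2.30 FPKM (-3.14, SE 0.13, adjusted p = 2.11e-06), S1pr1 from 3.94 to 1.61 FPKM (-1.24, adjusted p = 0.000619) and Bcl2l11 from 24.4 to 13.3 FPKM (-0.87, adjusted p = 2.28e-05). Genes of this list moved in both directions.

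**Figure D4:**
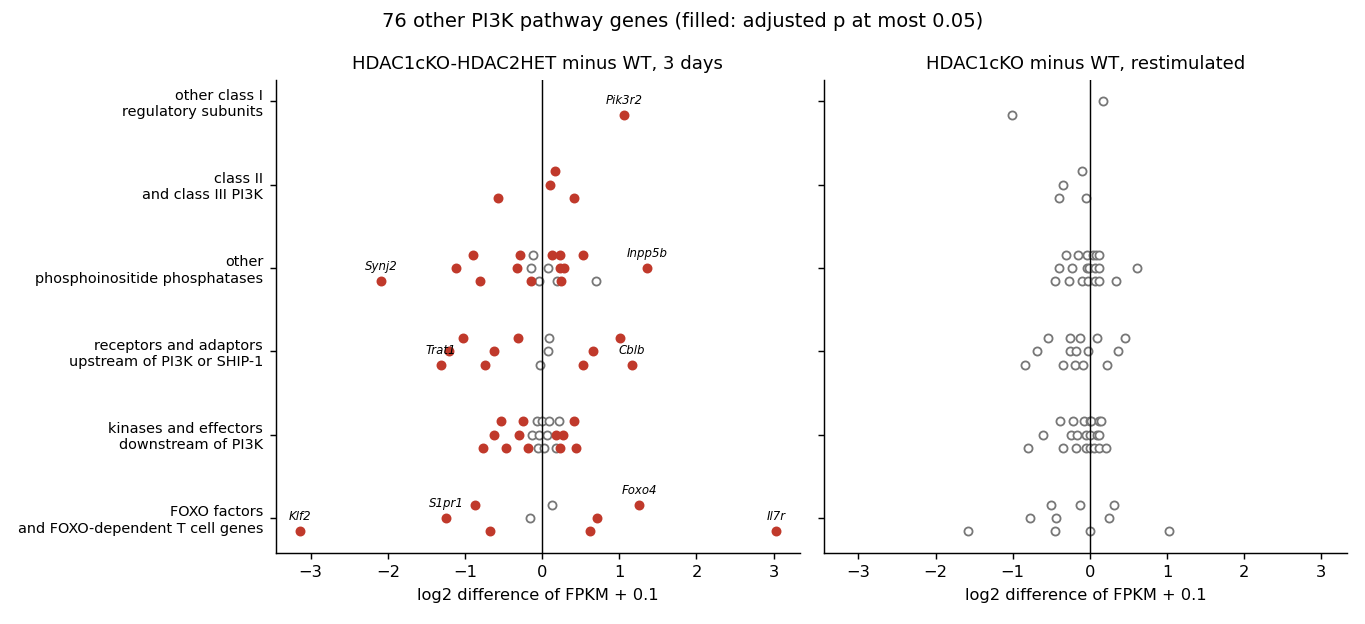
Mutant minus WT on the log2(FPKM + 0.1) scale (horizontal axis) of the 76 other pathway genes by list (rows), for HDAC1cKO-HDAC2HET (left) and HDAC1cKO (right). Filled points passed an adjusted p of 0.05, 49 of 70 on the left and 0 of 73 on the right, and the widest values on the left are Klf2 at -3.14 and Il7r at 3.03.

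The nearest tested genes on each side of the members were also compared. Upstream of Pik3r5, Ntn1 lies 31298 bases away and rose from 0.383 to 0.604 FPKM (0.58, SE 0.20, adjusted p = 0.0447, limma) in HDAC1cKO-HDAC2HET cells, a call lost in 7 of the 8 fits that left out 1 library. After restimulation Ntn1 was at 0.363 FPKM in WT and 0.938 FPKM in HDAC1cKO cells (1.16, adjusted p = 0.278). Myh10, the next tested gene beyond Pik3r6, was at 10.8 and 8.63 FPKM after 3 days (-0.32, adjusted p = 0.0665). Around the other members, 3 neighbours fell by 2-fold or more. They were Prkar2b, 112177 bases from Pik3cg (-1.02, adjusted p = 0.000162), Zmat3, 31657 bases from Pik3ca (-1.06, adjusted p = 2.43e-05), and Gm1123 near Pik3cb (-1.52, adjusted p = 0.00501). Gm1123 lies 939 bases from Pik3cb, which was lower in the same cells, and was at 0.579 FPKM in WT and 0.121 FPKM in HDAC1cKO-HDAC2HET cells. The closest neighbour of all, Clstn1, lies 269 bases from Pik3cd and went the other way from it. Clstn1 fell (-0.53, adjusted p = 7.4e-05, limma) where Pik3cd was higher.

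Profiles most like that of Pik3r5 were sought among 10270 protein-coding genes by Pearson's r of log2(FPKM + 0.1) over the 14 libraries, centred within each experiment. They were Unc119b (r = 0.987), Tubb6 (0.983), Aldh7a1 (0.981), Vps37b (0.979) and Fig4 (0.979). The points share libraries and the shift between mutant and WT cells, so r is a description. Tubb6, a β-tubulin, rose the most of these, from 8.85 to 62.6 FPKM in HDAC1cKO-HDAC2HET cells, and was at 34.5 and 37.5 FPKM in restimulated WT and HDAC1cKO cells. Aldh7a1, an aldehyde dehydrogenase, was at 10.9 and 41.6 FPKM after 3 days and at 13.3 and 15.0 FPKM after restimulation. Vps37b, an ESCRT-I subunit, was at 8.95 and 28.0 FPKM and then at 11.7 and 11.7 FPKM. Unc119b, a lipid-binding chaperone, was at 30.7 and 55.0 FPKM and then at 35.5 and 36.1 FPKM. Fig4, which is itself a phosphoinositide 5-phosphatase but was in none of the lists, was at 8.78 and 12.8 FPKM and then at 9.28 and 8.93 FPKM. In Pik3r5, Tubb6, Unc119b, Aldh7a1 and Vps37b the 4 WT libraries of the 3-day experiment held the lowest values of all 14, and in Fig4 they did not.

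**Figure D5:**
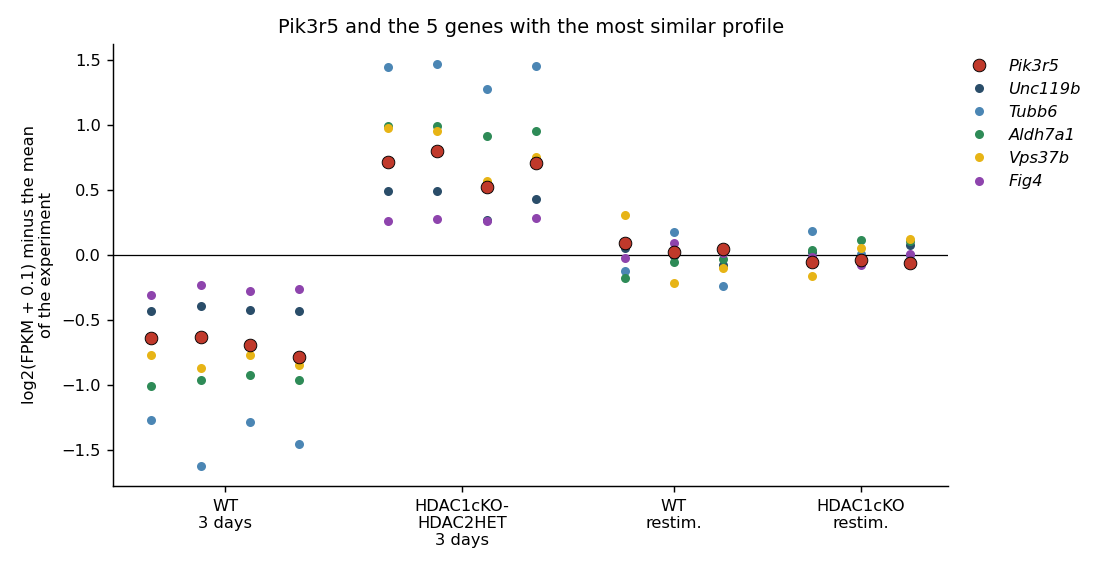
log2(FPKM + 0.1) minus the mean of the experiment (vertical axis) for Pik3r5 and the 5 genes with the highest r, in each of the 14 libraries (points, by group). All 6 genes are below 0 in the 4 WT and above 0 in the 4 HDAC1cKO-HDAC2HET libraries, and the restimulated libraries of Pik3r5 lie between -0.06 and 0.09.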

How the data were processed

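RNA-Seq libraries (TruSeq stranded mRNA, 50 bp single reads) of 14 samples were measured. The deposited FPKM values, 1 table of genes and assembled loci a library, were made by the authors with TopHat and Cufflinks on mm10. The submitters' notes also list STAR 2.5.2b, Subread 1.5.1, edgeR and R 3.4 with no role. Members were taken by gene name, or, for an unnamed locus, where its span and that of the annotated gene shared at least 0.8 of their joint length (31 of 126 values by name). Depth was estimated from the steps of low FPKM values, of which 81.7% to 84.6% were whole fragments within 0.05. Differences were fitted with limma 3.58.1 (R 4.3.3) on log2(FPKM + 0.1), with an intensity trend, for genes with a mean of at least 0.1 FPKM, separately in each experiment, and across both for the difference between them. Only genes with a value in every library of the experiment and with spans that shared at least 0.8 of their joint length between libraries were fitted, and genes taken by span with a value of 0 were left out. P-values were adjusted by Benjamini-Hochberg over all genes tested, with a threshold of 0.05. The fits were tested on simulated data. FPKM understates small changes of low genes after the added 0.1.

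The members and the pathway lists were chosen with earlier results of these data known. Genes named were all members, Hdac1, Hdac2, up to 3 largest rises and 3 largest falls per list and experiment past the threshold, up to 6 with the largest tested difference between experiments, the nearest tested neighbours of Pik3r5 and Pik3r6, other neighbours past 2-fold, and the 5 profiles most like Pik3r5. Clstn1 was added as the closest neighbour of any member. The GC box motif was added after the sequences were read. Alternatives tried were pseudocounts of 0.01 and 1, filters of 1 FPKM and none, rescaling by median ratios, no trend, replicate number as a block, sex coded from Xist, a joint span of 0.9, and leaving out each library. Some results on single genes are not reported here. Values from the authors' own comparisons were not used.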

Additional observations from a re-analysis of the deposited data

Results flagged for a closer look

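Among 17 groups of 4 libraries of these genes, 2 held 1 library far from the other 3, where chance gives about 1 in 20. Pik3ca was at 14 FPKM in HDAC1cKO-HDAC2HET replicate 1 and between 10.8 and 11.2 FPKM in the other 3. Pik3r6 was at 0.0136 FPKM in WT replicate 4 of the 3-day experiment and at 0 in the other 3, a gap of about 1.9 fragments. With those 3 at 0 any value above 0 is flagged, so the rate of 1 in 20 does not apply to Pik3r6.

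Pik3r5 and Pik3r1 had every mutant library above WT in the 3-day experiment and below WT after restimulation, with differences between the 2 log2 differences of 1.47 and 0.659. After restimulation the 95% intervals of the log2 differences spanned no change, at -0.31 to 0.10 and -0.69 to 0.002. Of all genes, 23.4% were higher without overlap in the 3-day experiment and 12.3% lower without overlap after restimulation. No test of these differences is used, so they are untested here, since the genes were chosen with the contrasts known.

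The log2 difference from WT in HDAC1cKO-HDAC2HET minus that in HDAC1cKO cells passed the test of the difference itself for 16 pathway genes, of which 6 are named (limma, 4 group means, 14 libraries). It was 2.01 for Il7r (SE 0.34, adjusted p = 0.00246), -1.64 for Synj2 (SE 0.14, adjusted p = 4.96e-05), -1.56 for Klf2 (SE 0.29, adjusted p = 0.00413), -1.19 for Inpp4a (SE 0.30, adjusted p = 0.0188), 1.02 for Phlpp1 (SE 0.27, adjusted p = 0.0247) and 1.01 for Foxo4 (SE 0.18, adjusted p = 0.00316). Il7r, Klf2, Synj2 and Foxo4 moved the same way in both experiments, at 1.02, -1.58, -0.45 and 0.25 in HDAC1cKO cells. None was called there (adjusted p = 0.246, 0.147, 0.245 and 0.425, limma). Inpp4a and Phlpp1 had opposite signs in the 2 experiments. Phlpp1, a phosphatase that inactivates AKT, was at 6.26 FPKM in WT and 3.39 FPKM in HDAC1cKO cells and at 3.51 and 4.08 FPKM in the 3-day experiment. It was called in neither experiment alone (adjusted p = 0.112 in the 3-day experiment and 0.2855 after restimulation, limma). The pathway lists were chosen with earlier results of these data known, so these tests are not independent of those results.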

How the results depend on the processing

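Of 399 refitted log2 differences of the members, 7 moved by more than 1 SD, with no called value changing sign. Pik3r5 ranged from 1.18 to 1.42 in HDAC1cKO-HDAC2HET and from -0.12 to -0.07 in HDAC1cKO cells over all alternatives. Of the pathway genes with a difference between experiments, the 11 higher became 7 with a separate spread and the 5 lower became 3 with the sex covariate, and leaving out 1 library gave 7 to 12 higher and 4 to 8 lower. Leaving out HDAC1cKO-HDAC2HET replicate 2 gave the 7, and leaving out WT replicate 1 or HDAC1cKO replicate 2 of the restimulation experiment gave the 8. The cause was not tested. Inpp4a in HDAC1cKO cells, not called, turned from 0.081 to -0.081 with the sex covariate and ranged from -0.20 to 0.32 without 1 library. Of the 855 refits of named genes, 32 lost and 3 gained a call. Among the rises in HDAC1cKO-HDAC2HET cells, Ntn1, Inpp5a and Pik3c2b lost the call with no filter (adjusted p = 0.0789, 0.0583 and 0.0642) and Ntn1 and Pik3c3 with the block (0.0531 and 0.0931). Without 1 library Pik3c2b lost it for WT replicates 2 and 4 and mutant replicates 1 and 3, Pik3c3 for WT 1 and 3 and mutant 1 to 3, and Inpp5a for WT 1, 2 and 4 and mutant 1, 3 and 4. Phlpp1's difference lost its call with the block, the sex covariate, separate spreads or without HDAC1cKO replicate 1, and Inpp4a's with the sex covariate. The sex covariate could not be fitted in the 3-day experiment, where all libraries were Xist-positive. After restimulation it left WT replicate 2 as the only WT library compared with HDAC1cKO cells, so results with it rest on that library.

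Same-numbered libraries of the groups did not deviate together, with correlations over genes of -0.0198 to 0.0461, so the numbers gave no pairing. With replicate number as a block, 21 pathway genes rose and 24 fell in HDAC1cKO-HDAC2HET cells, and the difference between experiments was called for 7 higher and 5 lower pathway genes.

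Depth limited Pik3r6 and other genes at a few fragments, and 3 libraries a group limited the restimulation experiment, where the 95% interval of Pik3cd spanned -0.50 to 0.76.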
